A study of Mus musculus with 12 samples.

Results

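The genes described here are 10 targets of ERK signalling, most of which restrain the pathway that induces them: the phosphatase genes Dusp4, Dusp5 and Dusp6, the Sprouty genes Spry1, Spry2 and Spry4, the Spred genes Spred1 and Spred2, and the ETS factor genes Etv4 and Etv5. They were taken by symbol, and all 10 were measured, among 19938 genes with a single symbol on the arrays. Where a gene had several probe sets, the one brightest on average across the 12 arrays stood for it, and 8 of the 10 genes had only 1. The samples were total RNA of hippocampus and olfactory bulb from adult mice labelled C57BL/6, each on its own array. The 4 groups were hippocampus of GRF2 KO mice, hippocampus of wild-type mice, olfactory bulb of GRF2 KO mice and olfactory bulb of wild-type mice, with 3 animals in each, and animal codes place both tissues of the same 6 animals. GRF2 KO is the loss of Rasgrf2, which encodes a calcium-responsive exchange factor of Ras. The sources used here do not give the exons removed, the sex of the animals or whether knockout and wild-type mice were littermates.

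When a receptor or calcium entry activates Ras, the kinases Raf, MEK and ERK are switched on in turn, and ERK changes the transcription of its target genes. Several of the induced proteins act back on the pathway. DUSP4, DUSP5 and DUSP6 remove the activating phosphates from MAP kinases, Sprouty proteins block signalling between receptor and Raf, and SPRED proteins bring the Ras GTPase-activating protein neurofibromin to the membrane. ETV4 and ETV5 are transcription factors of the PEA3 group that carry the response to fibroblast growth factors. Transcripts of these genes are for this reason often read as a measure of ERK output, and the question here was how they lay by tissue and by Rasgrf2 genotype.

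Values are log2 intensities after RMA, a normalization that makes arrays comparable and compresses differences near background, so a difference of 1 is a doubling of intensity. Array medians over all probe sets lay between 6.82 and 6.89 in hippocampus and between 6.93 and 6.96 in olfactory bulb. Any 2 arrays of a tissue had a correlation of 0.984 or more over the probe sets. Rasgrf2 itself was lower in knockout than in wild-type hippocampus by 0.58 (SE 0.077, limma adjusted p = 0.00197). In the bulb its difference was -0.14 (adjusted p = 0.532). The tissue labels matched their markers, since all 7 hippocampal neuron markers passed the test as higher in hippocampus and all 9 bulb neuron markers as lower there, in both genotypes. A wild-type bulb array, replicate 1, stood apart in Cyp2g1, which encodes a cytochrome P450 of nasal mucosa. It read 8.29 there and 5.37 to 5.68 on the other bulb arrays, and the genotype and tissue results of the 10 genes are also given without it, as are calls of other genes in bulb. The arrays read whole tissue, in which fewer cells of a type and less RNA per cell cannot be told apart. Precision is limited by the number of arrays, 3 to a group.

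**Figure D1:**
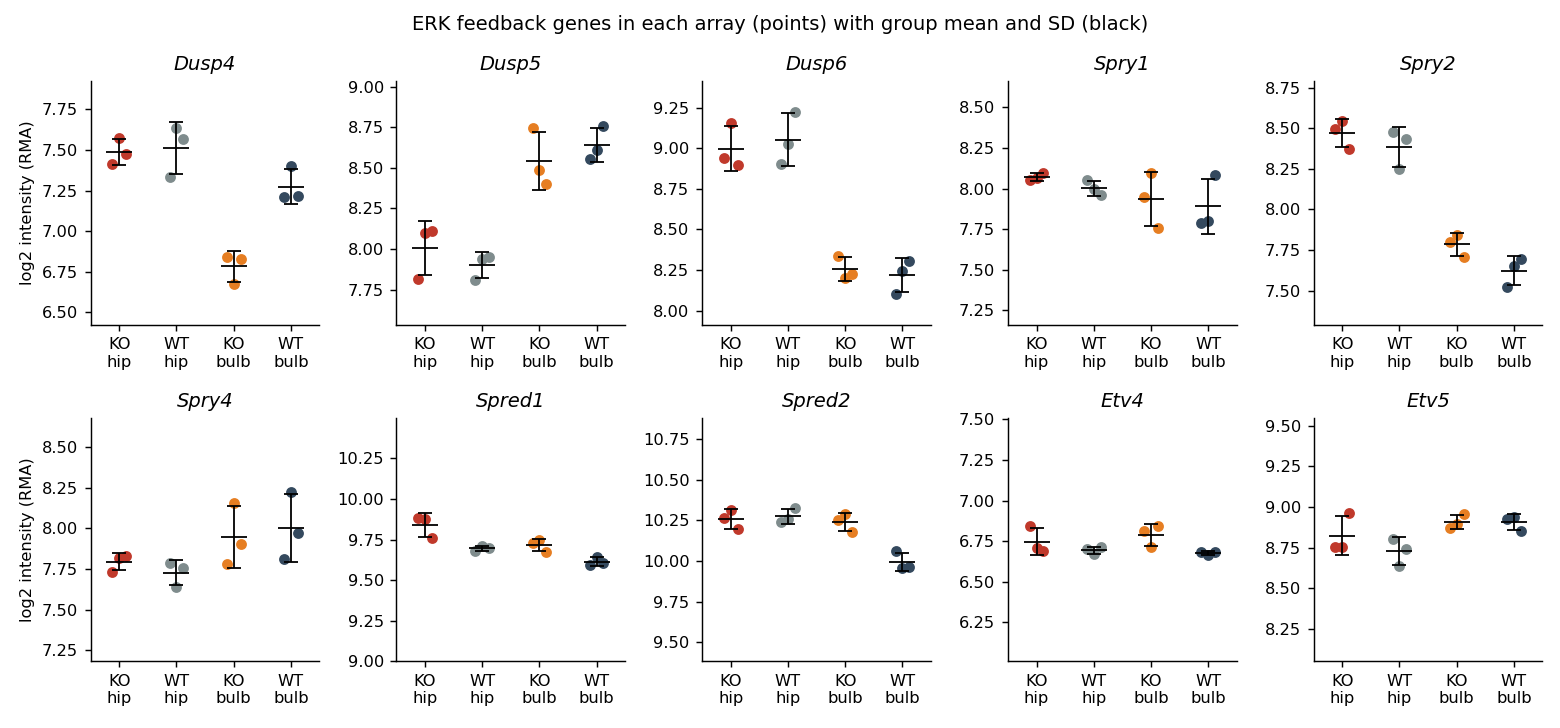
Log2 intensity of each of the 10 genes in every array, with the mean and SD of each group of 3 in black; from left to right are knockout and wild-type hippocampus and knockout and wild-type bulb, and every panel spans the same log2 range. The knockout bulb values of Dusp4 lie below those of the other 3 groups, and the step between tissues stands out in Dusp5, Dusp6 and Spry2.

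Several of the genes differed between the tissues, by the largest amounts Dusp6, Spry2 and Dusp5 in wild type. Dusp6 and Spry2 were higher in hippocampus than in olfactory bulb and Dusp5 was lower, in both genotypes. The promoters of these genes are shown because they are the members with the largest tissue differences in wild type. Each is 300 bases of RefSeq sequence (build GRCm38.p6), 250 before and 50 after the annotated start, written 5′ to 3′ on the strand of the gene. The Dusp5 window is chr19:53528895-53529194 on the plus strand, that of Dusp6 is chr10:99262981-99263280 on the plus strand and that of Spry2 is chr14:105896770-105897069 on the minus strand. Capitals mark letters that match a motif searched.
Dusp5: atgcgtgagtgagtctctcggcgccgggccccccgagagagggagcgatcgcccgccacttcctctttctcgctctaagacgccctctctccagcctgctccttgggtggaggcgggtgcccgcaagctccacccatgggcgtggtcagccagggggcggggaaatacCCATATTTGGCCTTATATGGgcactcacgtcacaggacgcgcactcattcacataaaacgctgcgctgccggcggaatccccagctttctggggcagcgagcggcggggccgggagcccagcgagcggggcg
Dusp6: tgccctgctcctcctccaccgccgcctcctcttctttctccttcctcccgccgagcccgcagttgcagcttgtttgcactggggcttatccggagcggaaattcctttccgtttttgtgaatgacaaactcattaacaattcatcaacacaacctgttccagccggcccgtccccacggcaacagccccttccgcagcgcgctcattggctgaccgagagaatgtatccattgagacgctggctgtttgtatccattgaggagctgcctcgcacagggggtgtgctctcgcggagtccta
Spry2: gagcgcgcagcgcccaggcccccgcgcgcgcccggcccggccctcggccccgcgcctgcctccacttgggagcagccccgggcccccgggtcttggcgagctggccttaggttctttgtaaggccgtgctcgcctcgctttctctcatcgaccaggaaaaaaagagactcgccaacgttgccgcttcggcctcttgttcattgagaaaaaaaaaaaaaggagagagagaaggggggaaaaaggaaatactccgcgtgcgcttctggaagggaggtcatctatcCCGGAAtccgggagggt

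Motifs were searched on both strands as CCGGAA (the core bound by many ETS factors), TGACGTCA (the cyclic AMP response element), TGANTCA (the AP-1 site) and the CArG box of serum response factor. The Dusp5 window held a pair of adjacent CArG boxes, from -82 to -73 and from -72 to -63 relative to the start. The Spry2 window held CCGGAA from 34 to 39 after the start, and the Dusp6 window held none of the motifs. Over 32817 windows of this length in the table, 1.63% held a CArG box, 14.9% CCGGAA, 7.81% TGANTCA and 1.79% TGACGTCA. Of the 10 genes, 7 are in the table, and 5 of these 7, Dusp6 among them, had none of the motifs. The CArG boxes and CCGGAA are descriptions of the letters in these windows.

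Dusp6 encodes the cytoplasmic phosphatase most selective for ERK. It read 8.94, 9.16 and 8.90 in knockout hippocampus, against 8.34, 8.20 and 8.23 in knockout bulb. In wild type it read 8.90, 9.03 and 9.22 in hippocampus, against 8.10, 8.24 and 8.31 in bulb. All hippocampal arrays lay above all bulb arrays. The difference between the tissues was 0.74 in knockout (SE 0.094, limma adjusted p = 1.27e-05), a 1.67-fold higher intensity, and 0.83 in wild type (SE 0.094, adjusted p = 3.74e-06), or 1.78-fold. Without wild-type bulb replicate 1 the wild-type differences were 0.78 for Dusp6, 0.71 for Spry2, -0.78 for Dusp5 and 0.31 for Spred2, and these genes passed there as well.

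Spry2, a Sprouty gene induced by receptor tyrosine kinases, read 8.49, 8.54 and 8.37 in knockout hippocampus, against 7.80, 7.85 and 7.71 in knockout bulb. In wild type it read 8.48, 8.25 and 8.43 in hippocampus, against 7.52, 7.65 and 7.69 in bulb. The tissues did not overlap here either. The difference was 0.69 in knockout (SE 0.080, limma adjusted p = 5.46e-06) and 0.76 in wild type (SE 0.080, adjusted p = 1.75e-06). Within an animal the hippocampus exceeded the bulb by 0.66 to 0.70 in the 3 knockout animals and by 0.72 to 0.83 in the 3 wild-type animals joined by their codes, or by 0.60 to 0.96 when these were joined by the number in the title.

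Dusp5 encodes a nuclear phosphatase that is specific for ERK and is itself an immediate target of growth factor signalling. It lay the other way, at 7.82, 8.10 and 8.11 in knockout hippocampus, against 8.74, 8.49 and 8.40 in knockout bulb. Wild-type arrays read 7.81, 7.94 and 7.95 in hippocampus, against 8.55, 8.61 and 8.76 in bulb. The difference was -0.54 in knockout (SE 0.101, limma adjusted p = 0.000517) and -0.74 in wild type (SE 0.101, adjusted p = 2.58e-05). Of 13 immediate early genes, listed separately as a readout of recent neuronal activity, 7 passed as lower in hippocampus in knockout, beside 19.9% of all genes, and 10 in wild type, beside 23.4%. None passed as higher, though 3 of the 13 had differences above 0 in knockout.

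Dusp4, a nuclear phosphatase gene that acts on ERK and on the stress-activated MAP kinases, was higher in hippocampus by 0.70 in knockout (SE 0.089, limma adjusted p = 1.27e-05) and by 0.24 in wild type (SE 0.089, adjusted p = 0.0452). The wild-type groups overlapped, at 7.33, 7.64 and 7.57 in hippocampus and 7.21, 7.40 and 7.22 in bulb. With the animal, by its code, as a block the wild-type call was lost (adjusted p = 0.104), as it was with trend and robust moderation (adjusted p = 0.0541) and over every probe set (adjusted p = 0.0737). It was also lost without wild-type hippocampus replicate 2 (0.18, adjusted p = 0.168) or 3 (0.21, adjusted p = 0.139), and without wild-type bulb replicate 1 (0.20, adjusted p = 0.13) or 3 (0.21, adjusted p = 0.128). Spred2 passed as higher in hippocampus in wild type, by 0.28 (SE 0.066, adjusted p = 0.00291), and differed by 0.02 in knockout (adjusted p = 0.866). Its second probe set gave 0.29 in knockout (limma adjusted p over every probe set = 0.207) and 0.56 in wild type (limma adjusted p = 0.0193).

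The other genes did not pass between the tissues. Spry4 differed by -0.15 in knockout and by -0.27 in wild type (limma adjusted p = 0.0513 in wild type). In wild type it passed with the animal, by its code, as a block (adjusted p = 0.0299), with trend and robust moderation (adjusted p = 0.0393) and without bulb replicate 1 (-0.37, adjusted p = 0.0154). Etv5 differed by -0.08 in knockout and -0.18 in wild type, where it passed with genes of low signal left out (adjusted p = 0.0349) and as the mean of its probe sets (-0.23, adjusted p = 0.0486). Spry4 also passed in wild type with genes of low signal left out (adjusted p = 0.0293). Spry1 differed by 0.14 in knockout and 0.11 in wild type, Spred1 by 0.12 in knockout and 0.08 in wild type, and Etv4 by -0.04 in knockout and 0.02 in wild type. In all, 3 of the 10 genes passed as higher in hippocampus and 1 as lower in knockout. Of all genes 39.1% were called there, 19.2% higher and 19.9% lower. In wild type 4 passed as higher and 1 as lower, where 40.9% of all genes were called, 17.5% higher and 23.4% lower. With both directions counted, these shares are near those of all genes, so the tissue calls say which feedback genes differ and not that the set does. Whether the set leans towards hippocampus was not tested. The directional shares of all genes depend on how arrays are centred. Of the wild-type calls over all genes, 42.7% were higher in hippocampus, and 57.4% after median centring. In knockout these values were 49.2% and 54.4%. All hippocampal values lay on 1 side of all bulb values for 5 of the 10 genes in knockout, beside 48.9% of all genes, and for 7 in wild type, beside 50.9%. The median difference was 0.07 in knockout and 0.096 in wild type, beside 0.013 and -0.071 over all genes.

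**Figure D2:**
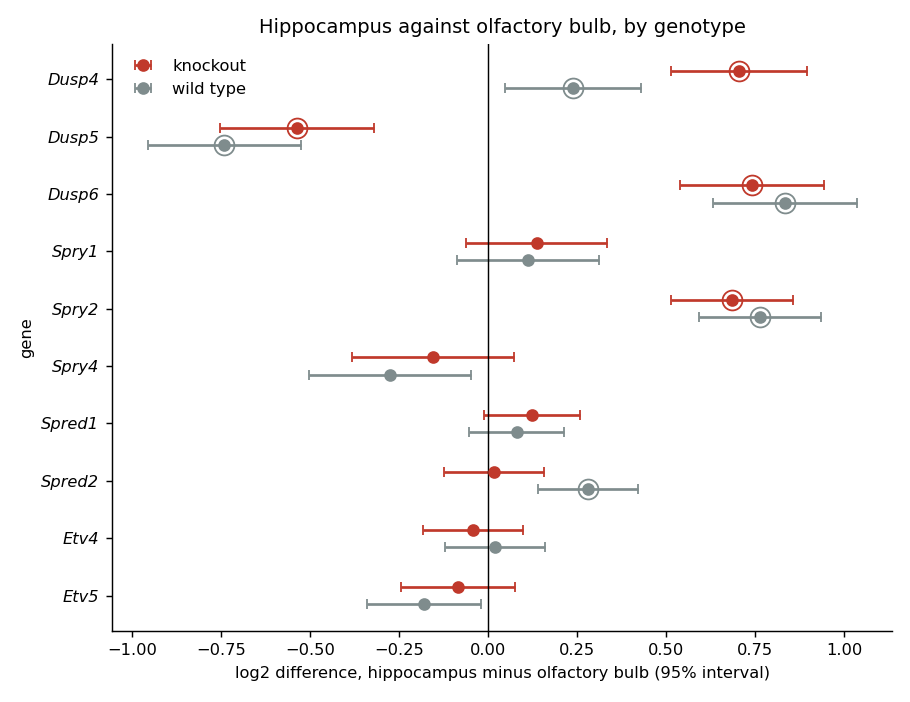
Difference in log2 intensity between hippocampus and olfactory bulb for each of the 10 genes, in knockout (red) and wild type (grey), with 95% intervals of the limma fit and a ring where the adjusted p was under 0.05. Dusp6 and Spry2 lie to the right and Dusp5 to the left in both genotypes, while the points of Dusp4 and Spred2 lie farthest apart between the genotypes.

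The comparison of GRF2 KO with wild-type bulb found 1 feedback gene past the threshold. Dusp4 was lower in knockout bulb, by 0.49 on the log2 scale, and the other 9 genes did not pass. Of these, Spred2, Spry2, Etv4 and Spred1 had all knockout values above all wild-type values, at differences of 0.10 to 0.25. The groups were separated in this direction for 8.22% of all genes.

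Dusp4 read 6.84, 6.68 and 6.83 in knockout bulb, against 7.21, 7.40 and 7.22 in wild-type bulb. All knockout arrays lay below all wild-type arrays, and the means were 6.78 ± 0.094 for knockout bulb and 7.27 ± 0.11 for wild-type bulb (SD, n = 3 each). The difference was -0.49 (SE 0.089, 95% interval -0.68 to -0.30, limma adjusted p = 0.0294), a 1.41-fold lower intensity, and ranked 46 by p among 19938 genes. Dusp4 had 1 probe set, and its mean over the arrays lay below the median of all genes, as did that of Etv4 alone among the others. In bulb 0.411% of all genes were called, 0.186% higher and 0.226% lower in knockout.

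The Dusp4 difference kept its direction in all 12 alternatives that gave a value, at -0.43 to -0.52, and passed the threshold in 5 of them, with adjusted p from 0.0165 to 0.135. It did not pass without knockout replicate 4 (-0.52, adjusted p = 0.0738), 5 (-0.44, adjusted p = 0.135) or 6 (-0.52, adjusted p = 0.0856), nor without wild-type replicate 1 (-0.52, adjusted p = 0.0648) or 2 (-0.43, adjusted p = 0.12). It passed without wild-type replicate 3 (-0.52, adjusted p = 0.0379). It did not pass with only the bulb arrays fitted (adjusted p = 0.0614) or over every probe set (adjusted p = 0.0702).

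Of the 12 lists of activity and cell type markers, 4 had means that did not overlap between the bulb groups. The mean of the 13 immediate early genes lay at -0.49, -0.31 and -0.63 relative to the wild-type mean in knockout arrays, against -0.13, -0.12 and 0.25 in wild-type arrays. All 13 had differences below 0, where 44.5% of all genes had differences above 0. Of the 13, 6 passed the threshold, where 0.226% of all genes were called lower: Fosb, Egr3, Egr4, Npas4, Nr4a2 and Btg2. Of these 6 calls, 3 held without wild-type replicate 1 (Egr3, Egr4 and Btg2), 3 without knockout replicate 5, and 0 without knockout replicate 4 or 6 or wild-type replicate 2 or 3 (limma adjusted p up to 0.242), with all differences still below 0. The 5 oligodendrocyte precursor markers had a mean of -0.095, -0.13 and -0.18 in knockout, against -0.040, 0.052 and -0.012 in wild type. The 4 general neuronal markers lay at -0.034, -0.12 and -0.087 in knockout, against 0.010, -0.00015 and -0.010 in wild type. These markers did not move together. Snap25 had a mean of 12.64 in knockout and 13.08 in wild-type bulb, Rbfox3 11.05 and 11.14, and Syt1 12.93 and 12.95. Tubb3 lay the other way, at 9.17 in knockout and 8.94 in wild type. The 9 bulb neuron markers lay at 0.089, 0.035 and 0.12 in knockout, against -0.0028, 0.011 and -0.0079 in wild type. No marker of the oligodendrocyte precursor, general neuronal and bulb neuron lists passed the test. The lists of hippocampal neurons, astrocytes, oligodendrocytes, microglia, vessels, meninges, choroid plexus and nasal mucosa overlapped between the genotypes. The part of the marker lists in the Dusp4 difference was not tested.

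**Figure D3:**
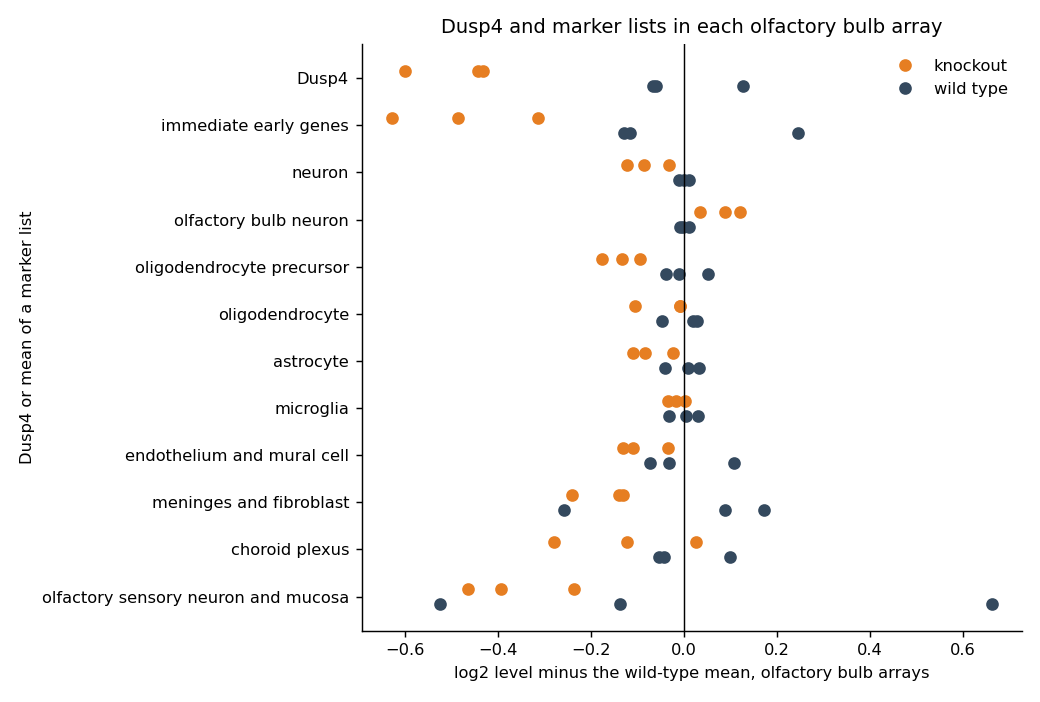
Dusp4 and the mean of each marker list, except that of hippocampal neurons, in the 3 knockout (orange) and 3 wild-type (dark blue) olfactory bulb arrays, as log2 level minus the wild-type mean. Dusp4, the immediate early genes, the neuron list and the oligodendrocyte precursor list lie lower in every knockout array, the bulb neuron list lies higher, and the nasal mucosa list reaches 0.66 in a single wild-type array.

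Among the genes that did not pass in bulb, Spred2 was nearest to the threshold. Spred2 encodes a membrane protein that holds back Raf activation, and it read 10.25, 10.29 and 10.18 in knockout bulb, against 10.06, 9.96 and 9.96 in wild-type bulb. The groups did not overlap, and the difference was 0.25 (SE 0.066, adjusted p = 0.178, and 0.0471 with trend and robust moderation of the spread). Its second probe set gave 0.13 (SE 0.162), with overlapping groups. Spry2 differed by 0.16 (SE 0.080, adjusted p = 0.473), Etv4 by 0.11 (SE 0.066, adjusted p = 0.545) and Spred1 by 0.10 (SE 0.063, adjusted p = 0.56). Groups did not overlap in bulb for 5 of these 10 genes, 4 higher and 1 lower, beside 17.1% of all genes, 8.22% higher and 8.87% lower. Differences were above 0 for 7 of the 10, beside 44.5% of all genes.

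Dusp6 and Spry4, which are also common readouts of ERK output, overlapped between knockout and wild-type bulb. Dusp6 differed by 0.04 (95% interval -0.16 to 0.24) and Spry4, a Sprouty gene of fibroblast growth factor signalling, by -0.05 (-0.28 to 0.17). Dusp5 differed by -0.10 (-0.31 to 0.12), Spry1 by 0.04 (-0.15 to 0.24) and Etv5 by 0.00 (-0.16 to 0.16). Etv5 had a second probe set that read 8.28, 8.06 and 8.10 in knockout bulb, against 8.65, 8.43 and 8.18 in wild-type bulb, a difference of -0.27 (SE 0.124, limma adjusted p over every probe set = 0.49). Without wild-type bulb replicate 1 the differences were 0.28 for Spred2, 0.11 for Spry2, 0.11 for Etv4 and 0.092 for Spred1, none past the threshold, and those of Dusp6 (-0.021) and Spry1 (-0.0071) turned below 0. The median difference of the 10 genes over all arrays was 0.04, beside -0.016 over all genes.

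In hippocampus none of the 10 genes passed between GRF2 KO and wild type. Adjusted p ran from 0.537 to 0.951, and 1 gene, Spred1, had an unadjusted limma p under 0.05, as did 8.91% of all genes. The 95% intervals of the 10 differences lay between -0.26 and 0.32. Over all genes 0.256% were called in hippocampus, 0.145% (29) higher and 0.11% (22) lower in knockout, or 20 higher and 25 lower with median-centred arrays.

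Dusp4, the gene called in bulb, read 7.41, 7.57 and 7.48 in knockout hippocampus, against 7.33, 7.64 and 7.57 in wild-type hippocampus. The groups overlapped, with a difference of -0.03 (95% interval -0.22 to 0.17). Spred1, which brings neurofibromin to the membrane and is mutated in the human disorder Legius syndrome, read 9.88, 9.88 and 9.76 in knockout hippocampus, against 9.68, 9.71 and 9.70 in wild-type hippocampus. It was the only one of the 10 whose groups did not overlap there, where 13.1% of all genes did not, and its difference was 0.14 (SE 0.063, adjusted p = 0.537).

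Of the remaining hippocampal differences, Dusp5 (0.11), Etv5 (0.098), Spry2 (0.08), Spry1 (0.07), Spry4 (0.07) and Etv4 (0.05) were above 0, while Dusp6 (-0.06) and Spred2 (-0.02) were below. Differences were thus above 0 for 7 of the 10, Spred1 included, beside 63% of all genes. The median of the 10 was 0.067, beside 0.034 over all genes. The means of the immediate early genes overlapped between the hippocampal groups, at -0.34, 0.03 and -0.21 relative to the wild-type mean in knockout arrays and -0.27, 0.06 and 0.20 in wild-type arrays, and none of the 13 passed. Of the 13 differences, 12 were below 0. For the genes called in bulb, hippocampal differences ran from -0.58 for Btg2 (limma adjusted p = 0.0989) to -0.0023 for Nr4a2. None of Fosb, Egr3, Egr4, Npas4, Nr4a2 and Btg2 passed for a difference of the knockout effects between the tissues (adjusted p from 0.374 to 0.745). A knockout effect particular to bulb was therefore not shown for these genes.

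**Figure D4:**
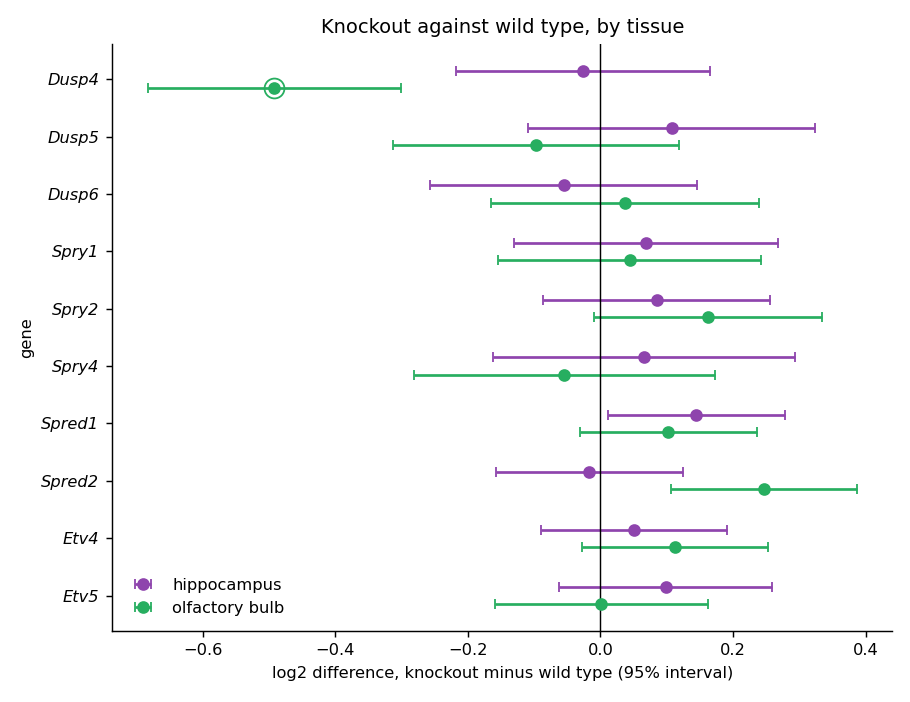
Difference in log2 intensity between knockout and wild type for each of the 10 genes, in hippocampus (purple) and olfactory bulb (green), with 95% intervals of the limma fit and a ring where the adjusted p was under 0.05. Dusp4 in bulb, at -0.49, is the only ringed point, and the hippocampal intervals all lie between -0.26 and 0.32.

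Whether the knockout effect differed between the tissues was tested directly. None of the 10 genes passed, with adjusted p of 0.353 or above, where 0.015% of all genes were called. Dusp4 had the largest difference of effects of the 10, 0.47 (hippocampus minus bulb, SE 0.127, 95% interval 0.20 to 0.74, limma adjusted p = 0.353). Within animals the Dusp4 difference of hippocampus over bulb was 0.57, 0.90 and 0.65 in knockout, against -0.07, 0.43 and 0.35 in wild type. For Spred2 the knockout effects differed by -0.26 (SE 0.093, limma adjusted p = 0.389), and its hippocampus exceeded its bulb by 0.010 to 0.028 in knockout animals, against 0.20 to 0.37 in wild-type animals. The genotypes did not overlap in these within-animal values for 3 of the 10 genes, Dusp4, Spred2 and Spry2, beside 13.8% of all genes. The wild-type tissues are joined differently by code and by title number in 2 of the 3 animals. Joined by title number, the wild-type differences of Dusp4 were 0.12, 0.24 and 0.35, and 2 of the 10 genes, Dusp4 and Spred2, did not overlap, beside 14.7% of all genes. Without wild-type bulb replicate 1 the knockout effects differed by 0.50 for Dusp4 and by -0.30 for Spred2, again not past the threshold. A difference in the knockout effect between the tissues was therefore not shown for Dusp4.

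With both tissues of an animal averaged, 3 knockout animals were set against 3 wild-type animals. Dusp4 was lower in knockout by 0.26 (SE 0.048, limma adjusted p = 0.0383). This value is the mean of -0.03 in hippocampus and -0.49 in bulb, and does not show that Dusp4 fell in both tissues. Dusp4 was the only one of the 10 to pass, where 0.577% of all genes were called. Of all genes 0.311% (62) were called higher and 0.266% (53) lower, or 52 higher and 72 lower after median centring. The call was lost without any of the 6 animals in turn, at -0.24 to -0.27 and adjusted p from 0.074 to 0.183, over every probe set (adjusted p = 0.105), and when arrays were joined by the number in the title in place of the animal code (adjusted p = 0.158). Spred1 (0.12), Spred2 (0.11) and Spry2 (0.12) were above 0 without passing, at adjusted p of 0.446, 0.501 and 0.566, and the median of the 10 was 0.053, beside 0.0095 over all genes. The second probe set of Spred2 gave -0.0053 (SE 0.104). That of Etv5 gave -0.19 (SE 0.058, limma adjusted p over every probe set = 0.369), against 0.050 for the probe set used.

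The other genes of the pathway were set beside the feedback genes. Of 68 listed, 58 had a probe set with a single symbol, and a single gene of them passed in either tissue. Ccnd1, the G1 cyclin gene that ERK signalling induces, was lower in knockout in hippocampus (-0.94, SE 0.075, adjusted p = 1.41e-05) and in bulb (-0.45, SE 0.075, adjusted p = 0.0133). Ccnd1 read 8.36, 8.41 and 8.23 in knockout hippocampus, against 9.21, 9.32 and 9.31 in wild-type hippocampus, and 8.61, 8.58 and 8.51 in knockout bulb, against 9.03, 9.12 and 8.91 in wild-type bulb. Its groups did not overlap in either tissue, whereas those of Dusp4 overlapped in hippocampus. For neither gene was the knockout effect shown to differ between the tissues. The difference of effects, hippocampus minus bulb, was -0.49 for Ccnd1 (limma adjusted p = 0.228) and 0.47 for Dusp4 (adjusted p = 0.353). The hippocampal call of Ccnd1 held without each of the 6 hippocampal arrays in turn. The bulb call was lost without knockout replicate 5 (-0.46, limma adjusted p = 0.0501) or 6 (-0.43, adjusted p = 0.0865), and without wild-type replicate 1 (-0.45, adjusted p = 0.0619) or 2 (-0.40, adjusted p = 0.0735).

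None of the 10 measured ligand genes, 9 receptors, 6 adaptors and exchange factors, 4 Ras proteins and GTPase-activating proteins, 5 kinases and scaffolds or 7 ERK substrates passed between the genotypes in either tissue. Among 11 other feedback genes none passed either, and Ccnd1 was 1 of 6 other ERK output genes. In bulb the nearest were Dusp9, another ERK phosphatase gene (-0.33, adjusted p = 0.158), the hepatocyte growth factor receptor gene Met (0.32, adjusted p = 0.22) and the platelet-derived growth factor receptor gene Pdgfra (-0.25, adjusted p = 0.258). In hippocampus they were the fibroblast growth factor receptor gene Fgfr3 (0.23, adjusted p = 0.371), Dusp1, a phosphatase gene of the immediate early class (-0.38, adjusted p = 0.489), and the ligand gene Fgf10 (-0.19, adjusted p = 0.501). The median of the 58 was 0.016 in hippocampus and -0.014 in bulb.

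**Figure D5:**
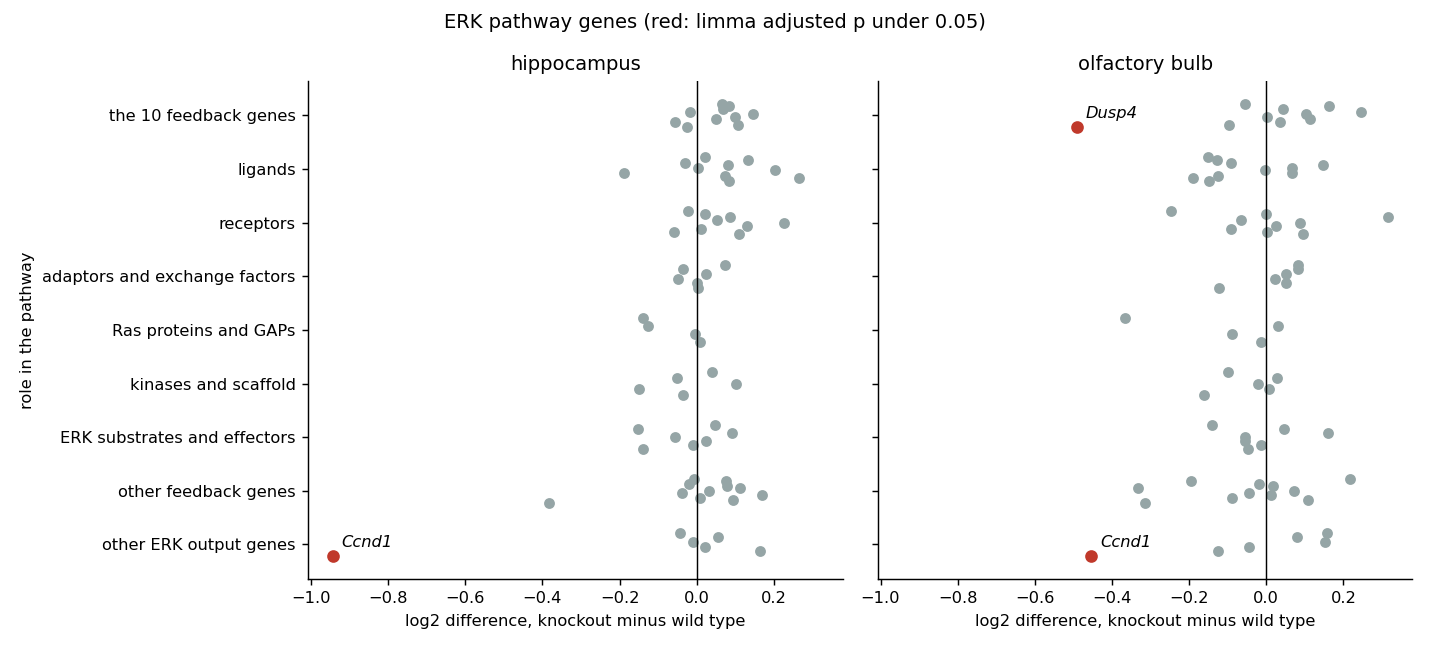
Log2 difference between knockout and wild type of the 10 feedback genes and 58 other ERK pathway genes by role, in hippocampus (left) and olfactory bulb (right), each point a gene, red where the limma adjusted p was under 0.05. Ccnd1 is red in both tissues and Dusp4 in bulb, and the other points gather around 0.

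Between the tissues, the largest differences among the 58 pathway genes exceeded those of the feedback genes, a shorter list, and list size was not allowed for. In knockout 11 of 58 passed as higher in hippocampus and 22 as lower, and in wild type 8 as higher and 23 as lower, beside 19.2% higher and 19.9% lower of all genes in knockout and 17.5% higher and 23.4% lower in wild type. After median centring the wild-type split of all genes turned from 3480 higher and 4668 lower to 4417 higher and 3274 lower. Epha4, an ephrin receptor gene, was higher in hippocampus by 1.88 in knockout and 1.81 in wild type, and the receptor gene Kit by 0.96 in knockout and 0.84 in wild type. The phosphatase gene Dusp10, which acts on stress-activated kinases, fell by 1.24 in knockout and 1.22 in wild type relative to bulb. Dusp1 differed by -1.20 in knockout and -1.13 in wild type, the fibroblast growth factor receptor gene Fgfr2 by -1.01 in knockout and -1.12 in wild type, and Met by -1.21 in knockout and -0.98 in wild type, all past the threshold in both genotypes, also without wild-type bulb replicate 1. Without that array 7 of 58 passed as higher and 22 as lower in wild type.

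The feedback genes did not vary together as a block between arrays of a group. After the mean of each group was removed, 25 of the 45 pairs correlated above 0 over the 12 arrays, from -0.78 for Spred1 with Etv5 to 0.58 for Dusp5 with Dusp6. These are descriptions over arrays that share animals, with no test. Over the same arrays, after each tissue mean was removed, the genes with values most like those of Dusp4 were the protease gene Tmprss11d (r = 0.94), the calcineurin-like gene Chp1 (r = 0.91) and the mitochondrial channel gene Vdac1 (r = 0.91). Since genotype differences were left in these values, the knockout difference of Dusp4 in bulb is part of what chose the 3 genes. Their own bulb differences (-0.25 for Tmprss11d, -0.45 for Chp1 and -0.12 for Vdac1) are therefore a description and no support for that of Dusp4. Chp1 was called in bulb (limma adjusted p = 0.026), but not without wild-type bulb replicate 1 (-0.44, adjusted p = 0.0997). Leaving out each bulb array in turn, it passed in 2 of 6.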

How the data were processed

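Biotin-labelled total RNA of each sample was read on a 1-colour array. The values the authors deposited are log2 intensities of probe sets, made with RMA and the oligo package per the submitters' processing notes. The sources used here give no versions or genome build, and do not say if both tissues were normalized jointly. Of 35556 probe sets, 21789 carried 1 gene symbol in the platform annotation, standing for 19938 genes. Groups came from the titles and animals from their codes. For a pair of wild-type animals code and title number pair the tissues differently. Arrays with the same code correlated across tissues in their deviations from group means at -0.26 to 0.12. Those with different codes, within a genotype, correlated at -0.33 to 0.36, so these values do not bear out the pairing by code.

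Tests used limma 3.58.1 in R 4.3.3 (lmFit, eBayes, Benjamini-Hochberg over all genes at 0.05): a model of 4 group means over 12 arrays, and 3 against 3 animal means. Alternatives were other moderation, median centring, every probe set, a low-signal filter, mean probe sets, single-tissue fits, the animal as a block and leaving out arrays. Leaving out arrays for genes other than the 10, and joining tissues by title number within animals, were added after seeing the data. The pipeline was tested on simulated data. All 10 genes are named. Of the pathway list the rule named the genes past the threshold and the next 3 by p between genotypes, the 6 largest between tissues, and the 3 genes most like a called member. Members and lists were chosen with earlier results of these data known. Figures were drawn with matplotlib 3.10.9.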

Additional observations from a re-analysis of the deposited data

How the results depend on the processing

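Of 838 values of single genes under an alternative, 776 kept their direction and their side of the threshold, 22 lost the call, 7 gained it and 33 changed sign, none of these last with either value past the threshold. All 6 comparisons had 3 arrays or animals a side, which limits them. Under trend and robust moderation 136 genes were called in bulb (82 as reported), 2 of them members, Dusp4 and Spred2, and 181 with the tissues averaged (115). Over every probe set 125 were called in hippocampus (51) and 0 for the difference of effects (3, at 2124 with an unadjusted limma p under 0.05), and 0 members passed in bulb or with the tissues averaged. With genes of low signal left out, which leaves out Dusp4 and Etv4, 0 members passed in either. Fits of a single tissue called 28 genes in hippocampus and 36 in bulb, with 0 members. The replicate block of tissue differences per animal called 0 genes for the difference of effects, and joining animals by title number left 0 members with the tissues averaged. Blocking by animal changed no other call than those given for Dusp4 (wild type and tissues averaged) and Spry4 (wild type).

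Leaving out single arrays or animals gave 30 to 43 genes in hippocampus, 35 to 105 in bulb with 0 to 1 members, 0 to 4 for the difference of effects, and 69 to 134 with the tissues averaged and 0 members. The bulb count was 35 to 50 without any array other than wild-type replicate 3, and the hippocampal count 30 to 33 without knockout replicate 5 or wild-type replicate 1 or 3. The count with the tissues averaged was 69 without the animal of wild-type bulb replicate 1 or that of knockout replicate 4, and no gene passed for the difference of effects without either array of knockout replicate 4. Small differences then changed sign: in hippocampus Dusp4 ran from -0.12 to 0.036, Dusp6 from -0.14 to 0.031 and Spred2 from -0.045 to 0.015; in bulb Dusp6 from -0.021 to 0.082, Etv5 from -0.027 to 0.019, Spry1 from -0.036 to 0.14 and Spry4 from -0.16 to 0.055; with the tissues averaged Dusp5 from -0.025 to 0.048, Dusp6 from -0.045 to 0.057 and Spry4 from -0.064 to 0.076. The difference of effects of Spry1 ran from -0.073 to 0.10, and the tissue difference of Spred2 in knockout from -0.013 to 0.049. The cause of these changes was not tested.

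Signs of small differences turned with median centring for the difference of effects in Spry1 (-0.029) and Spred1 (-0.012) and with the tissues averaged in Dusp5 (-0.016) and Spry4 (-0.015). With the mean of both probe sets Etv5 turned to -0.0033 in hippocampus, -0.14 in bulb and -0.069 with the tissues averaged.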

Other observations

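The genes that lie beside the feedback genes on their chromosomes were looked up, with 20 measured genes on each side. Beside Dusp4, Gsr, which encodes glutathione reductase, was lower in knockout bulb by 0.50 (limma adjusted p = 0.0319). Beside Spred1, Ivd, an enzyme gene of leucine breakdown that lies 18 measured genes away, was lower in knockout by 0.60 in hippocampus (adjusted p = 0.00127) and by 0.62 in bulb (adjusted p = 0.000631). Srp14, a signal recognition particle gene 8 genes from Spred1, was higher in knockout bulb by 0.52 (adjusted p = 0.0449). In all, 1 of 400 neighbours was called in hippocampus (0.25%) and 3 in bulb (0.75%), beside 0.256% and 0.411% of all genes. The hippocampal call and 2 of the bulb calls lay among the 40 neighbours of Spred1. Whether calls gather in a neighbourhood was not tested. Without wild-type bulb replicate 1 the bulb calls of Gsr (-0.39, adjusted p = 0.107) and Srp14 (0.60, adjusted p = 0.0546) were lost and that of Ivd held. Leaving out each bulb array in turn, Ivd passed in 6 of 6, Gsr in 1 and Srp14 in 0.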
